A study of Mus musculus with 6 samples.

Results

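Serpinb2 and 6 genes around plasminogen activation and clotting were followed in mouse blood neutrophils kept in hypoxia. The genes are Serpinb2, Plau, Plaur, Plat, Serpinb1a, F3 and Thbs1, 7 of the 18193 genes named on the arrays, and all 11 probe sets that carry 1 of these symbols alone are described. Serpinb2 was chosen by its MAS5 signal, which was lower in phd3 null samples, so its values between the genotypes are given as a description without a test. The other 6 were taken for their place in or near the same system, with earlier results of these data known.

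There were 3 phd3 null and 3 wild-type samples, each the neutrophils of an individual mouse on a C57 background, isolated from peripheral blood by negative magnetic selection. Both genotypes were cultured for 4 h at 3% oxygen before RNA extraction, so every value here is from hypoxic cells. The phd3 gene, now named Egln3, encodes an oxygen-dependent prolyl hydroxylase. The labels do not give the age or sex of the mice or the part of the gene that was removed.

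Plasmin, the protease that dissolves fibrin and helps cells move through matrix, is cut from plasminogen by the urokinase (Plau) and tissue-type (Plat) activators. Urokinase works at the cell surface on its receptor, encoded by Plaur, which neutrophils and monocytes carry. Plasminogen activator inhibitor 2, the product of Serpinb2, blocks both activators, stays largely inside the cell and is strongly inducible by inflammatory signals in monocytes and macrophages. Its clade B relative Serpinb1a inhibits the serine proteases of neutrophil granules. Tissue factor, encoded by F3, starts the clotting cascade, and thrombospondin 1, encoded by Thbs1, is a secreted glycoprotein that binds CD36 and CD47.

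The sequence upstream of the annotated start was held for 3 members in the RefSeq promoter table of mouse build GRCm38.p6. The other 4 members had no entry there. The 3 are shown so that a reader can see what the upstream regions do and do not share. Each run is the 250 bases before the start on the plus strand, and capitals mark the AP-1 motif, TGANTCA, searched on both strands.
Serpinb2, chr1:107511173-107511422: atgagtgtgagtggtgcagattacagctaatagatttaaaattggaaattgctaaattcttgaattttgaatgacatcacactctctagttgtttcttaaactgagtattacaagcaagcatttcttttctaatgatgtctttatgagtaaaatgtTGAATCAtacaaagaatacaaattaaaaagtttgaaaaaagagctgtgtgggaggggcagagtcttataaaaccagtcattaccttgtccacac
Plaur, chr7:24462233-24462482: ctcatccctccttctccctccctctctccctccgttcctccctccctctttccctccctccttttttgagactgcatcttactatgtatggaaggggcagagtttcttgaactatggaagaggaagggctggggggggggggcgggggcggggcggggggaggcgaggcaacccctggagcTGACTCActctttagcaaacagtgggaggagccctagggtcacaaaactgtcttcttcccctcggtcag
F3, chr3:121723287-121723536: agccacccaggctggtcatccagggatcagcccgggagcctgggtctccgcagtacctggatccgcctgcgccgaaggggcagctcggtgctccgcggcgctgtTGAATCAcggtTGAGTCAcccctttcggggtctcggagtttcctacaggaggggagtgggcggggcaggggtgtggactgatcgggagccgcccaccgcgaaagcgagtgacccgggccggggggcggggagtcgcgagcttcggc

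The AP-1 motif lay 94 to 88 bases before the start in Serpinb2 and 69 to 63 bases before it in Plaur, and F3 held 2 copies. In all, 6.75% of the 32851 promoters in the table held this motif in the same window. The Serpinb2 window had a GC content of 32.4% and a TATAAA motif 29 to 24 bases before the start, a motif found in 12.4% of promoters. The windows of Plaur and F3 had GC contents of 59.6% and 70.0%, no TATAAA, and 3 copies each of the GC box GGGCGG, which 32.7% of promoters held, and the copies in Plaur partly overlap. None of the 3 windows held the hypoxia response element core, searched as ACGTG or GCGTG and found in 38.6% of promoters. None held the cAMP response element TGACGTCA (1.55% of promoters) or the NF-kB motif (7.25%). A second Serpinb2 start is annotated 87 bases further on, and its window overlaps the first. It held the same copies of the AP-1 motif and TATAAA, 181 to 175 and 116 to 111 bases before that start. None of the other motifs searched was in it. A match is a run of letters and not a measured binding site, and the absence of one says only that these letters are not in this window.

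The values are MAS5 signals, a brightness per probe set on a linear scale with every array scaled to a common trimmed mean, and differences are phd3 null minus wild type on the log2(signal + 16) scale. Same-numbered samples of the genotypes share a code in the labels and are called pairs. Egln3, the targeted gene, gave 87.2, 29.6 and 73.5 in phd3 null samples, against 2088, 1733.9 and 327 in wild-type samples 1 to 3, by its brighter probe set. The other gave 39.7, 3.6 and 73.9 in phd3 null samples, against 411.3, 300 and 120.7 in wild-type samples. In pair 3 the phd3 null signal was 22.5% of the wild-type signal by the brighter probe set and 61.2% by the other. The arrays of pair 3 stood apart: the median of their correlations to the other arrays was 0.739 for the phd3 null and 0.788 for the wild-type sample, while on the remaining arrays it was 0.838 to 0.866. The neutrophil gene S100a8 was bright, at 11102.8 to 25479.7 on the 6 arrays, while Cxcr2 fell to 25.6 in phd3 null sample 3. Of the monocyte and macrophage markers, Csf1r, the receptor for macrophage colony-stimulating factor, was bright as well, at 3537.6 to 11088.3. F13a1 ran from 455.1 to 6879.1 and Adgre1 from 298 to 1197.8. Ccr2 was at 284.2 to 997.4, Cd68 at 262.7 to 889.4 and Cx3cr1 at 169.3 to 764.2. The remaining markers of that list were dim, with Ms4a7 at 13.9 to 136.2 and Cd163 at 2 to 61.4.

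Serpinb2 signal was lower in the phd3 null sample of each pair. It was 5.4, 57.3 and 135.8 in phd3 null samples 1 to 3, against 77.6, 439.9 and 366.5 in wild-type samples 1 to 3. Sample 1 had the lowest signal in both genotypes, and the genotypes overlapped, since phd3 null sample 3 was above wild-type sample 1. Within pairs the phd3 null signal was 6.96%, 13% and 37.1% of the wild-type signal. The means were 66.2 ± 65.7 in phd3 null samples and 295 ± 192 in wild-type samples (SD, n = 3 each), a difference of -2.03 (SE 0.77), with -2.13, -2.64 and -1.33 in pairs 1 to 3. The mean log2 level was 5.95 for phd3 null, against 7.99 for wild type. Genes under a mean of 5.90 over all arrays were not tested, so the phd3 null mean was just above that floor.

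Array medians ran from 49.4 to 64.2, and the Serpinb2 signal of phd3 null sample 1 was below its array median, while the other 5 signals were above theirs. The size of its difference depended on the pseudocount. It was -2.65 with a pseudocount of 1 and -1.40 with 64. It was -1.27 without phd3 null sample 1, whose signal of 5.4 was the lowest, and -2.75 without wild-type sample 1. Between samples of a genotype the SD of log2 Serpinb2 signal was 1.43 for phd3 null and 1.25 for wild type, against a median of 0.53 over all genes tested.

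**Figure D1:**
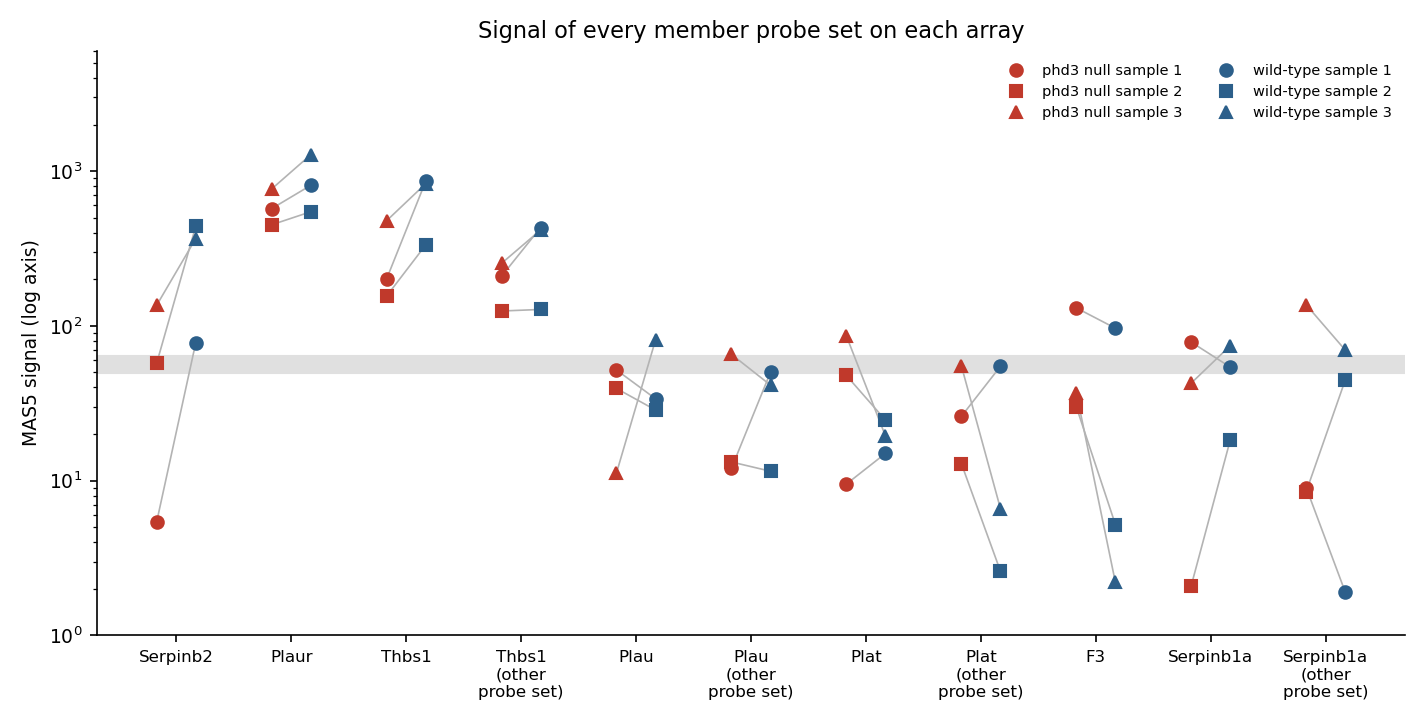
MAS5 signal (log axis) of the 11 member probe sets on each array, with phd3 null samples left of wild-type samples, grey lines joining same-numbered samples and a grey band for the range of array medians (49.4 to 64.2). Serpinb2, Plaur and both Thbs1 probe sets are lower in the phd3 null sample of every pair, while the probe sets of Plau, Plat, F3 and Serpinb1a scatter around or below the band.

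Plaur, the urokinase receptor gene, had a clear signal on every array. It was 572.3, 450.2 and 766.4 in phd3 null samples 1 to 3, against 809.5, 546.3 and 1275.9 in wild-type samples 1 to 3. Both genotypes had their highest signal in sample 3 and their lowest in sample 2, and the genotypes overlapped. The means were 596.3 ± 159 in phd3 null samples and 877.2 ± 369 in wild-type samples (SD, n = 3 each). The difference was -0.49 (SE 0.39), which missed the threshold of 0.05 in the limma fit (adjusted p = 0.9996, unadjusted p = 0.230). It was lower in 3 of 3 pairs, by -0.49, -0.27 and -0.72. Its size depended on single samples, being -0.31 without phd3 null sample 2, -0.79 without wild-type sample 2 and -0.19 without wild-type sample 3. The probe set is of a kind that can read several transcripts of the gene, so forms of the receptor cannot be separated.

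Thbs1 was the other member with a clear signal, read by 2 probe sets. The brighter one gave 200.7, 155.7 and 477.8 in phd3 null samples 1 to 3, against 858.5, 333 and 829.9 in wild-type samples 1 to 3. Sample 2 was lowest in both genotypes, and phd3 null sample 3 was above wild-type sample 2. The means were 278.1 ± 174 in phd3 null samples and 673.8 ± 295 in wild-type samples (SD, n = 3 each). The difference was -1.27 (SE 0.50), lower in 3 of 3 pairs (-2.01, -1.02 and -0.78). The limma fit gave an adjusted p of 0.9996 (unadjusted p = 0.0295), so it was not called. With the replicate number as a block its SE was 0.27, and it again did not pass (limma, adjusted p = 0.224). Without both arrays of pair 3, in a blocked fit of 2 pairs with 1 residual degree of freedom, Thbs1 passed (-1.52, limma adjusted p = 9.40e-04). That fit called 46 of the 10960 genes tested (33 lower), and it read Thbs1 by the brighter probe set alone. Without those arrays the difference of Serpinb2 was -2.38 and that of Plaur -0.38.

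The second Thbs1 probe set gave a smaller difference. Its signal was 209.4, 124.8 and 253.5 in phd3 null samples 1 to 3, against 432.1, 127.7 and 416.7 in wild-type samples 1 to 3. Here pair 2 was nearly level, at 97.7% of the wild-type signal, while the brighter probe set had 46.8% in that pair. The difference was -0.57 (SE 0.48; limma over all probe sets, unadjusted p = 0.266). Averaging both probe sets gave -0.92. One further probe set names Thbs1 together with another gene and was left out.

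Over the 10960 genes tested, limma called 0 (0.00%) without the block and 2 (0.0182%) with it, which were Egln3 and Ptgr1. Without the block even Egln3, the targeted gene, was not called (-3.85, limma adjusted p = 0.9996, unadjusted p = 1.8e-04). Missing the threshold in that fit is therefore weak evidence of no difference. An unadjusted p under 0.05 was reached by 191 genes (1.74%) without the block and 616 (5.62%) with it. Neither of the 2 tested members beside Serpinb2, Plaur and Thbs1, was called in either fit. Both were lower in every pair, as were 1424 (13%) of all genes tested, while 1386 (12.6%) were higher in every pair. Groups did not overlap for 6.92% of genes tested and for 0 of the 7 members. The lower values of Plaur and Thbs1 in every pair are read against that background, and nothing particular to them follows from the direction alone.

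**Figure D2:**
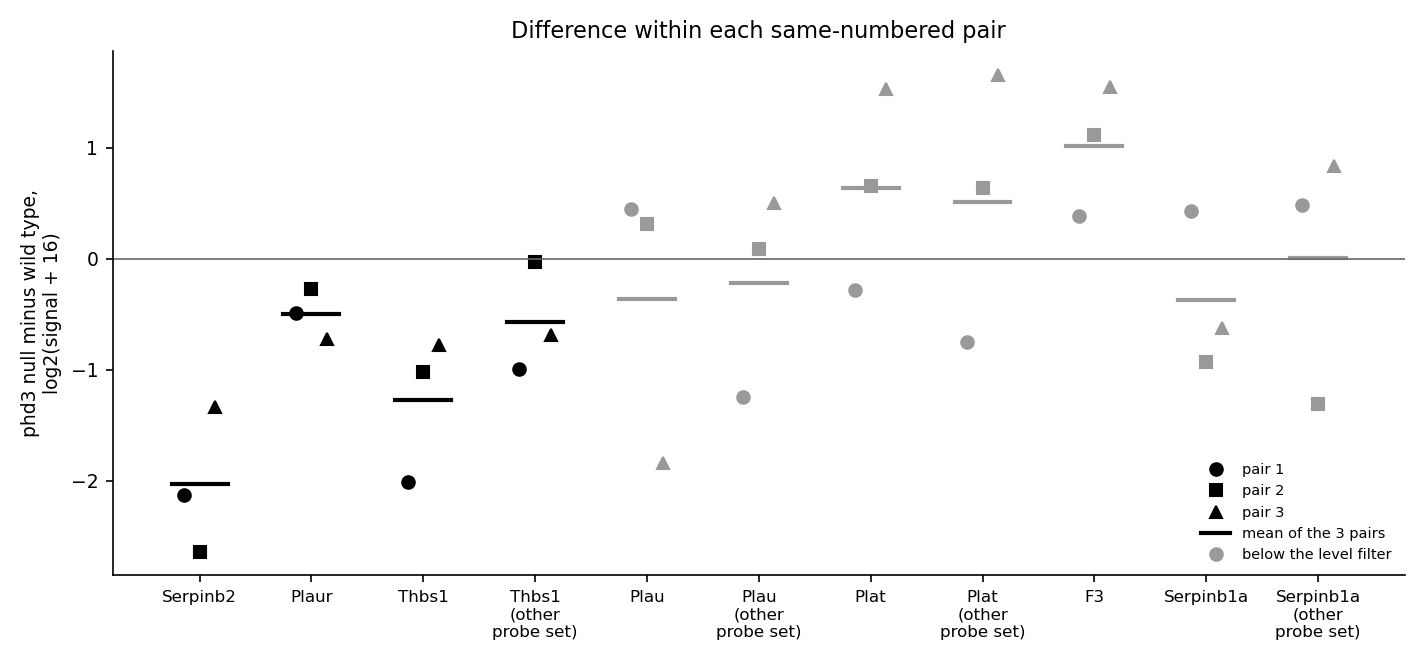
Difference of phd3 null minus wild type on the log2(signal + 16) scale within each same-numbered pair (symbols) and on average (bars) for every member probe set, with probe sets under the level filter in grey. The 4 probe sets past the filter are at or below 0 in every pair, and most of the grey ones cross 0.

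Both plasminogen activators were dim. Plau, read by 2 probe sets, gave 51.9, 39.4 and 11.2 in phd3 null samples 1 to 3, against 33.8, 28.6 and 81.3 in wild-type samples 1 to 3 by the brighter one. The other gave 12, 13.2 and 65.5 in phd3 null samples, against 50.2, 11.5 and 41.4 in wild-type samples. The probe sets ordered the arrays differently, so these signals give no level of urokinase mRNA to compare between genotypes.

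Plat gave 9.5, 47.8 and 86.1 in phd3 null samples 1 to 3, against 15, 24.6 and 19.4 in wild-type samples 1 to 3 by its brighter probe set. The other gave 26, 12.9 and 55.3 in phd3 null samples, against 54.8, 2.6 and 6.6 in wild-type samples. Both were higher in the phd3 null sample of pairs 2 and 3 and lower in that of pair 1. Each probe set had 1 of 6 signals above the array median. Plat was under the level filter, with a mean log2 level of 5.46 by the brighter probe set, and was not tested.

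F3 gave 130.7, 30 and 37.1 in phd3 null samples 1 to 3, against 96.6, 5.2 and 2.2 in wild-type samples 1 to 3. It was the 1 member whose signal was higher in the phd3 null sample of every pair, with differences of 0.38, 1.12 and 1.55. Its signal was above the array median in sample 1 of both genotypes and below it elsewhere. The mean difference was 1.01, with 2.11 for a pseudocount of 1 and 0.44 for 64. Leaving out phd3 null sample 1 gave 0.49, and leaving out wild-type samples 1, 2 and 3 in turn gave 1.85, 0.65 and 0.54. F3 was under the level filter and was not tested.

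Serpinb1a, the inhibitor of neutrophil elastase, gave 78.5, 2.1 and 42.7 in phd3 null samples 1 to 3, against 54.1, 18.4 and 74.6 in wild-type samples 1 to 3 by the brighter of 2 probe sets. That probe set is of a kind that can also read related genes, so its signal cannot be given to Serpinb1a alone. The other gave 9, 8.5 and 136.8 in phd3 null samples, against 1.9, 44.8 and 69.7 in wild-type samples. The probe sets disagreed on the direction in pair 3. The 7 probe sets of Plau, Plat, F3 and Serpinb1a together had 42 signals, from 1.9 to 136.8, of which 12 were above their array's median. All 4 genes were under the level filter, leaving 3 of the 7 members tested.

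Of 20 genes listed for plasminogen activation, inhibition and binding, 17 had a probe set of their own here. Without Serpinb2, which was chosen for its low values, 9 of them were tested. None of these 9 passed in limma, with or without the block, and 1, Plaur, had an unadjusted p under 0.05 with it, where 5.62% of all genes tested did. The 9 genes had 8 lower and 1 higher values on average, where 50.6% of all genes tested were lower, and a median of -0.24 against -0.01 for all genes tested. After Plaur the smallest p of the 9 was that of Lrp1, which encodes a receptor that clears activator and inhibitor complexes. Lrp1 had 158.8 ± 72.3 in phd3 null samples and 210.5 ± 50.4 in wild-type samples (SD, n = 3 each), a difference of -0.45 (SE 0.40, adjusted p = 0.9996).

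The plasminogen-binding pair of annexin A2 and S100A10 was bright and showed no common direction. Anxa2 had 4563.2, 5185.7 and 1360.5 in phd3 null samples 1 to 3, against 3642.5, 3444.4 and 2104.7 in wild-type samples 1 to 3, a difference of 0.10 (SE 0.53). S100a10 differed by -0.19 (SE 0.33). Plgrkt, a membrane receptor for plasminogen, had 836.1, 663.7 and 50.4 in phd3 null samples, against 1018.6, 475.8 and 119.1 in wild-type samples, with sample 3 the lowest of each genotype. Plasminogen itself, a liver product, gave signals from 3.2 to 39 and was not tested.

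Other clade B serpins lay on both sides of 0. Without Serpinb2, 17 had a probe set and 8 were tested, 3 lower and 5 higher, with a median of 0.28, and none passed in limma in either fit. Serpinb8 had 171.6 ± 74.9 in phd3 null samples and 101.9 ± 31.0 in wild-type samples (SD, n = 3 each), a difference of 0.61 (SE 0.41) and higher in 3 of 3 pairs. Serpinb9b, of the family that inhibits granzyme B, differed by -0.77 (SE 0.53) and was lower in 3 of 3 pairs. Adjusted p was 0.9996 for both in limma. Of the granule proteases that Serpinb1a can inhibit, Ctsg (cathepsin G) was tested and differed by 0.35 (SE 0.46), and Elane and Prtn3 were too dim to test.

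In the tissue factor pathway 16 of 17 listed genes had a probe set, 10 were tested, and none passed in limma in either fit. Their median was 0.03, with 5 lower and 5 higher. Procr, the endothelial protein C receptor, had 168.9, 71.4 and 21.3 in phd3 null samples 1 to 3, against 433.1, 456.1 and 44.4 in wild-type samples 1 to 3. It was lower in 3 of 3 pairs, with a difference of -1.47 (SE 0.82, adjusted p = 0.9996, and 0.439 with the block). Tfpi, the inhibitor of tissue factor, and its relative Tfpi2 differed by 0.77 (SE 0.65) and 0.62 (SE 0.55), each higher in 3 of 3 pairs and not passing (adjusted p = 0.9996 in limma).

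Thrombospondins and their receptors had 7 lower and 1 higher values among 8 tested, with a median of -0.33, and none passed. Of these 8, 5 were lower in every pair, where 13% of all genes tested were, and 50.6% of all genes tested were lower on average. Cd36, a thrombospondin receptor and scavenger of fatty acids, had 450.1, 355.5 and 206 in phd3 null samples 1 to 3 against 1185.9, 2417.1 and 447.3 in wild-type samples 1 to 3. Its difference was -1.71 (SE 0.57, adjusted p = 0.9996, and 0.0536 with the block). Cd47, the other well-known receptor, was nearly level in every pair, with -0.06 (SE 0.39).

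Partners of the urokinase receptor at the cell surface, mainly integrins, had 8 lower and 1 higher values among 9 tested. Their median was -0.33, and none passed in either fit. Of these 9, 4 were lower in every pair, where 13% of all genes tested were. On average 50.6% of all genes tested were lower. Itgb1, the integrin beta 1 gene, was at 373.6 ± 123 in phd3 null samples and 633.0 ± 165 in wild-type samples (SD, n = 3 each). Its difference was -0.75 (SE 0.36, adjusted p = 0.9996) and similar in the 3 pairs, at -0.86, -0.63 and -0.77. Itgam and Itgb2, which make the Mac-1 integrin, differed by -0.09 (SE 0.60) and -0.33 (SE 0.42), and Igf2r, a lysosomal sorting receptor that also binds the urokinase receptor, by -0.33 (SE 0.31). Matrix metalloproteinases and their inhibitors, which act beside plasmin on matrix, had 3 lower and 3 higher values, with a median of 0.00. Among them Mmp9 (gelatinase B) differed by 0.21 (SE 0.31), and Timp3 and Timp2, both inhibitors, by 0.27 (SE 0.43) and -0.16 (SE 0.37). No gene of that list passed. The lists share genes, with Lrp1 in 3 of them, and their counts are not independent.

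**Figure D3:**
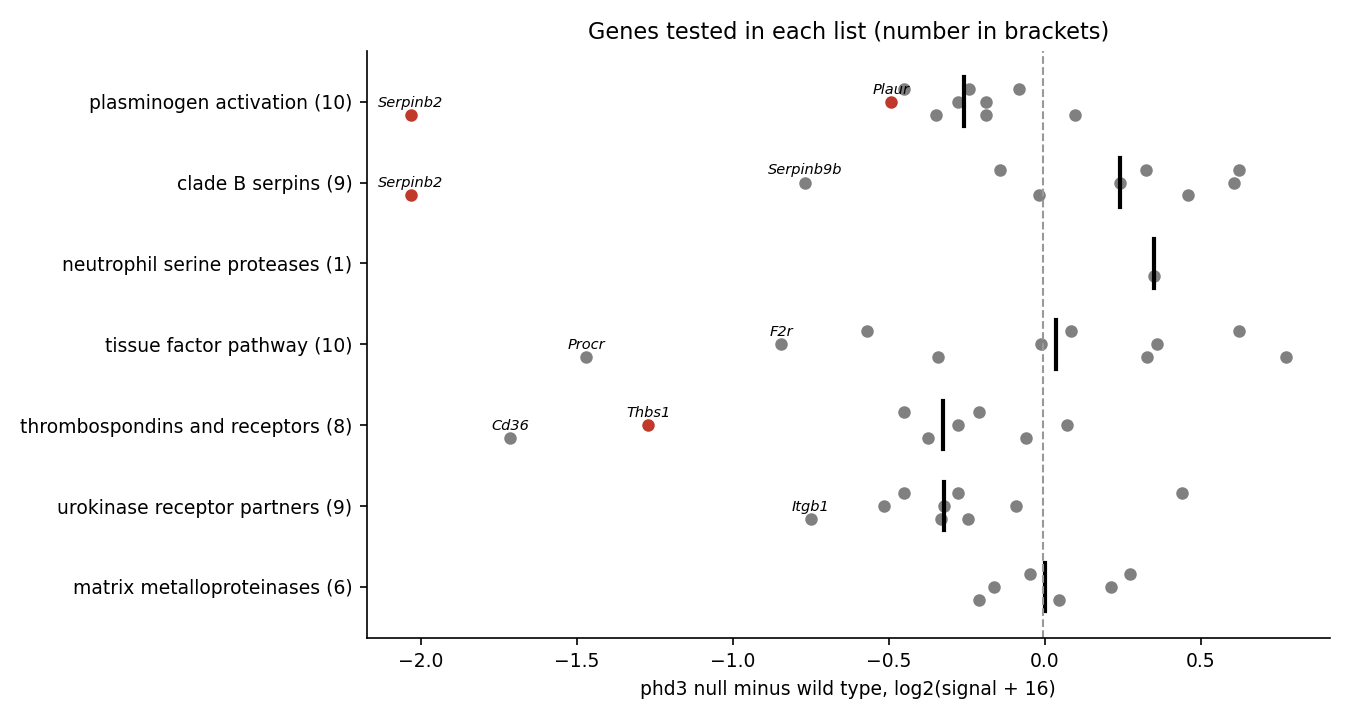
Difference of phd3 null minus wild type on the log2(signal + 16) scale for each gene tested in the 7 lists, with members in red, list medians as black bars and the median of all genes tested (-0.01) as a dashed line. Serpinb2, Cd36, Procr and Thbs1 lie furthest to the left, and the clade B serpins other than Serpinb2 lie on both sides of the line.

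Several cell types can express these genes, and in bulk samples fewer cells of a type cannot be told apart from less RNA per cell. The summed signal of natural killer cell markers was lower in the phd3 null sample of every pair, as Serpinb2 was. All 4 tested markers were lower on average, 3 were lower in every pair and Ncr1 was lower in 1 of 3 pairs. The sum was 359.7, 2255.6 and 1730.2 in phd3 null samples 1 to 3, against 1155.2, 5124.5 and 2513.3 in wild-type samples 1 to 3. Most of this sum was Gzma, for example 3717.1 of 5124.5 in wild-type sample 2. Both Serpinb2 and the natural killer cell sum were lowest in phd3 null sample 1 and highest in wild-type sample 2. The eosinophil sum, given below, shared both extremes and was also lower in the phd3 null sample of every pair. Its 4 markers had no common direction. Ccr3 and Prg2 were lower in 3 of 3 pairs, Siglecf in 2 of 3 and Epx in 0 of 3. On average Siglecf and Epx were higher (0.12 and 0.82). Ccr3, at 4.7, 9.8 and 11 in phd3 null samples against 38, 119.7 and 50.3 in wild-type samples, was too dim to test, as was Epx. The part of natural killer cells or eosinophils in the Serpinb2 values was not tested.

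The summed signal of monocyte markers was low in both samples of pair 3. It was 18536.9, 19178.5 and 5221.4 in phd3 null samples 1 to 3, against 17962.2, 17850.4 and 6086.8 in wild-type samples 1 to 3, with 5 of 7 tested markers lower on average. B cell markers summed to 114.8, 199.4 and 2602.7 in phd3 null samples, against 148.2, 378.3 and 1979.4 in wild-type samples, high in pair 3. Platelet markers summed to 609 to 999.5 in phd3 null samples and 610.1 to 830.2 in wild-type samples over 10 genes, and 2 of 6 tested were lower on average. Pf4, which defines platelets, gave 109.5, 2.4 and 90 in phd3 null samples 1 to 3, against 102.2, 81.3 and 87.8 in wild-type samples 1 to 3. It was lower in 1 of 3 pairs. On average Pf4 and Tubb1 were lower (-0.76 and -0.39). Itga2b, Gp1bb, Gp5 and Treml1 were higher (0.48, 0.34, 0.40 and 0.60). Neutrophil markers summed to 24860.7 to 48730.3 in phd3 null samples and 41544.5 to 54388.3 in wild-type samples, with 4 of 6 lower on average. Summed T cell markers ran from 79.5 to 358.7 in phd3 null and from 45.4 to 265.3 in wild-type samples. The eosinophil sum was 102.7, 140.7 and 229.4 in phd3 null samples 1 to 3, against 124.2, 278.9 and 235.1 in wild-type samples 1 to 3. Of its 2 tested markers, 1 was lower on average. Basophil and mast cell sums ran from 98.1 to 178.1 in phd3 null samples and from 37.6 to 351.3 in wild-type samples. Erythroid sums, mostly Alas2, ran from 588.8 to 6390 in phd3 null samples and from 2375.9 to 5606.8 in wild-type samples. No marker of these lists passed in limma, and what these cells add to the member values was not tested.

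**Figure D4:**
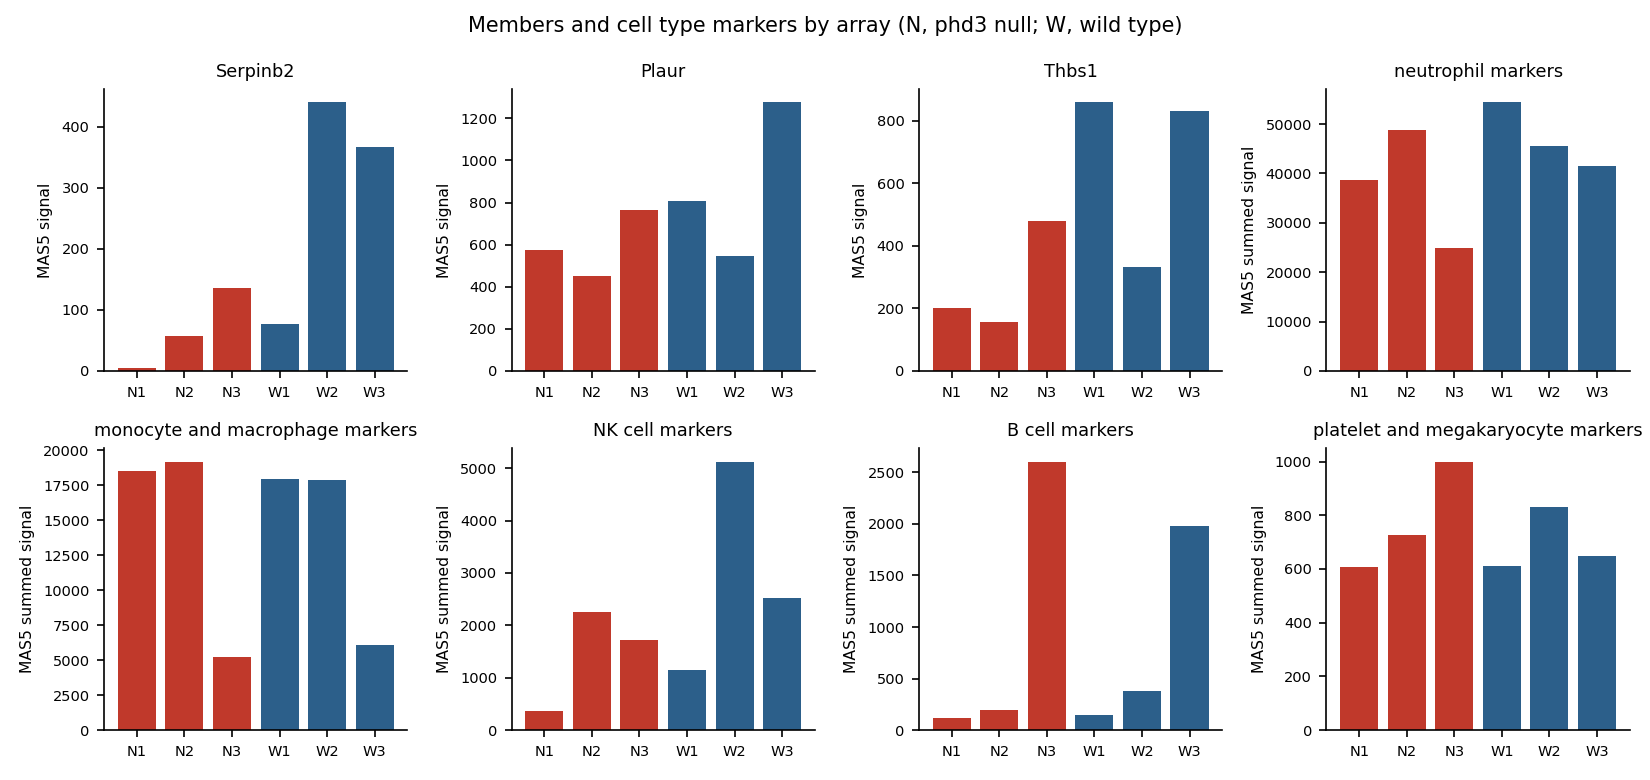
MAS5 signal of Serpinb2, Plaur and Thbs1 and summed MAS5 signal of 5 marker lists on each array, with phd3 null samples (N1 to N3, red) left of wild-type samples (W1 to W3, blue). Serpinb2 and the natural killer cell sum are both lowest in N1 and highest in W2, and the monocyte sum is low in N3 and W3.

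The genes whose pattern over the 6 arrays was most like that of Serpinb2, among the 10959 others tested, were Dpys, Hspbp1, Klhl26, Igf1os and Inpp5e. Likeness was measured as the Pearson correlation of log2 signal, from 0.975 for Inpp5e to 0.996 for Dpys (Spearman 0.943 to 1 over the 5 genes). Dpys, which encodes dihydropyrimidinase, had 13.6, 35.9 and 61.4 in phd3 null samples 1 to 3, against 42.7, 94.9 and 90.7 in wild-type samples 1 to 3. It was below the array median in every phd3 null sample and in wild-type sample 1. With 6 arrays, 27 genes had a correlation over 0.95, and the arrays share the pair effects described above, so this is a description of these arrays. The correlation also holds the genotype difference by which Serpinb2 was chosen. The 5 genes were all lower in phd3 null on average, by -1.18 to -0.57. Plaur and Thbs1 were less like it, at 0.437 and 0.519 (Spearman 0.257 and 0.429).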

How the data were processed

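The authors deposited linear MAS5 intensities, with MAS5 named in the submitters' processing notes. The MAS5 version, detection calls and scan details are not given in the sources used here. Trimming 2% at each end gave a mean of 100 on every array. Probe sets were named from GEO's platform annotation, with 34945 of 45101 carrying 1 symbol. A gene was represented by its probe set of highest mean log2(signal + 16). The level filter was the median of this mean over probe sets other than controls, 5.90, and 10960 genes passed it.

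Genotypes were compared with limma 3.58.1 in R 4.3.3 (lmFit, eBayes with trend, two-sided, Benjamini-Hochberg over all genes tested, threshold 0.05, no block). The code was tested on simulated data. Same-numbered samples share a code in the labels and were treated as pairs in the descriptions and in the blocked fit. Their deviations from the group means correlated at 0.292, 0.151 and 0.474 in pairs 1 to 3. Other pairings gave -0.363 to 0.177, and the highest of these, phd3 null sample 2 with wild-type sample 1, was above the value of pair 2. The main fit leaves the pairing out, and the paired fit is an alternative.

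Members and lists were chosen with earlier results of these data known. Genes named are the members, Egln3, up to 3 genes of smallest p in each list, the 5 most like Serpinb2 and cell type markers; Anxa2, S100a10, Plgrkt, Cd47, Itgam, Itgb2, Elane, Prtn3, Ptgr1 and plasminogen were named after their values were seen. Listed genes with no probe set of their own were not analysed here. The number of arrays limits the precision. Promoter sequences are RefSeq's, build GRCm38.p6.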

Additional observations from a re-analysis of the deposited data

How the results depend on the processing

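The count of genes called was 0 in most settings. It was 2 with the replicate block, 0 to 1 when 1 array was left out, 1 without both arrays of replicate 3, and 46 (33 lower) with the replicate block and without those arrays. In that last fit, with 2 pairs and 1 residual degree of freedom, Thbs1 passed (-1.52, adjusted p = 9.40e-04), and Plaur did not (-0.38, adjusted p = 0.906). The block changed no other call among Plaur, Thbs1 and the lists. Over its 16 alternatives Thbs1 ran from -1.72 to -0.92 (adjusted p from 9.40e-04 to 1.000) and Plaur from -0.79 to -0.19, with no change of sign. Leaving out 1 array gave -1.72 to -0.96 for Thbs1, -0.79 to -0.19 for Plaur and -2.75 to -1.27 for Serpinb2. Among the dim members the sign turned in 3 of 16 alternatives for Plau, 1 of 16 for Serpinb1a and 0 of 16 for Plat and F3. The median of the matrix metalloproteinase list was 0.20 without both arrays of replicate 3. The causes were not tested. No detection calls were used, so signals near the array median limit what can be said of Plau, Plat, F3 and Serpinb1a.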
